A study of Mus musculus with 35 samples.

Results

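The plasminogen activator system was followed through 5 genes measured in sorted podocytes, the cells that wrap the capillaries of the kidney glomerulus. The genes were Plat (tissue-type plasminogen activator), Plau (urokinase), Plaur (the urokinase receptor), Plgrkt (a plasminogen receptor with a C-terminal lysine) and Serpine2 (protease nexin-1, a serpin that inhibits plasminogen activators and thrombin). They were 5 of the 33292 genes in the expression table and were matched to it by symbol. The genes were selected with their levels in these groups already known. Their values are therefore given as descriptions and without p-values.

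The study asked how podocytes change when Lmx1b, a LIM homeodomain transcription factor, is replaced by a mutant form, and whether the proteasome inhibitor bortezomib alters that change. Podocytes came from Lmx1b +/lox mice (named WT in the sample labels), from Lmx1b H77L/lox mice and from Lmx1b C118F/lox mice. Both knock-in alleles carry an amino acid exchange in a LIM domain. Every mouse also carried a podocyte-specific rtTA transgene, tetO::Cre and the mT/mG reporter and drank doxycycline at 2 mg/ml. Cre therefore removed the homeodomain exons of the floxed allele in podocytes of all groups, the controls included, and left +/lox podocytes with 1 wild-type allele and knock-in podocytes with the mutant allele alone. Recombination is limited to cells in which the rtTA transgene is active. Bortezomib was injected at 0.3 μg/g every other day, and DMSO, its solvent, was injected in the other mice. Mice of 7 to 10 weeks entered the experiment, and green podocytes were sorted on day 7. There were 35 libraries in 6 groups, with 5 bortezomib-treated C118F/lox mice and 6 mice in every other group.

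Plasminogen is an inactive protease of the blood that is cleaved to plasmin by tissue-type activator or urokinase. Plasmin dissolves fibrin and degrades matrix, and serpins stop its activators. The urokinase receptor holds urokinase at the cell surface and binds integrins and vitronectin. In podocytes it has been studied for its part in foot process motility and proteinuria.

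The libraries held a median of 19166617 reads, recovered from the steps of the values, with a range from 5268723 to 24147776. The shallowest was replicate 2 of the bortezomib-treated C118F/lox mice, and the next had 14037777 reads. All 8 podocyte markers were above 1 TPM (a level corrected for transcript length and scaled to the same total in each library) in every mouse. Their summed level lay between 22133 and 37191 TPM in DMSO-treated +/lox mice and between 5247 and 9732 TPM in DMSO-treated H77L/lox mice. Endothelial markers summed to 12.7 to 161 TPM and leukocyte markers to 0.351 to 431 TPM. The highest endothelial sums, 161 and 71.4 TPM, belonged to replicate 1 of the DMSO-treated C118F/lox mice and replicate 1 of the DMSO-treated +/lox mice. The targeted gene, Lmx1b, was read at 37.4 to 185 TPM over all mice. Under DMSO it was at 44.8 to 89.7 TPM in +/lox mice and 89.9 to 139 TPM in H77L/lox mice, and the range of C118F/lox mice overlapped both. Its level per gene does not show the deleted exons or the exchanged amino acid, so it does not check the labels.

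Plat was by far the most abundant of the 5 genes and, under DMSO, the one whose level separated knock-in from +/lox mice most cleanly. It lies on chromosome 8 at 23247709-23272871 on the plus strand (GRCm39). In DMSO-treated +/lox mice it ranged from 2221 to 3020 TPM with a median of 2350 TPM. It ranged from 1561 to 1918 TPM with a median of 1730 TPM in DMSO-treated H77L/lox mice. In DMSO-treated C118F/lox mice the range was 1418 to 1925 TPM and the median 1631 TPM. All 6 mice of either knock-in line lay below all 6 +/lox mice. Plat ranked between place 26 and place 72 of the whole table in the 35 mice.

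The mean Plat level under DMSO was 2494 ± 317 TPM (SD, n = 6) in +/lox mice, 1758 ± 134 TPM in H77L/lox mice and 1636 ± 201 TPM in C118F/lox mice. The means of the knock-in lines were 29.5% and 34.4% lower. On the log2(TPM + 1) scale the difference was -0.50 ± 0.11 (SE) for H77L/lox and -0.61 ± 0.12 for C118F/lox. The summed level of the podocyte markers was lower in the same mice, as the plot of Plat against these markers shows, and its part in the Plat difference was not tested. In sorted bulk samples fewer podocytes and less RNA per podocyte cannot be told apart.

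**Figure D1:**
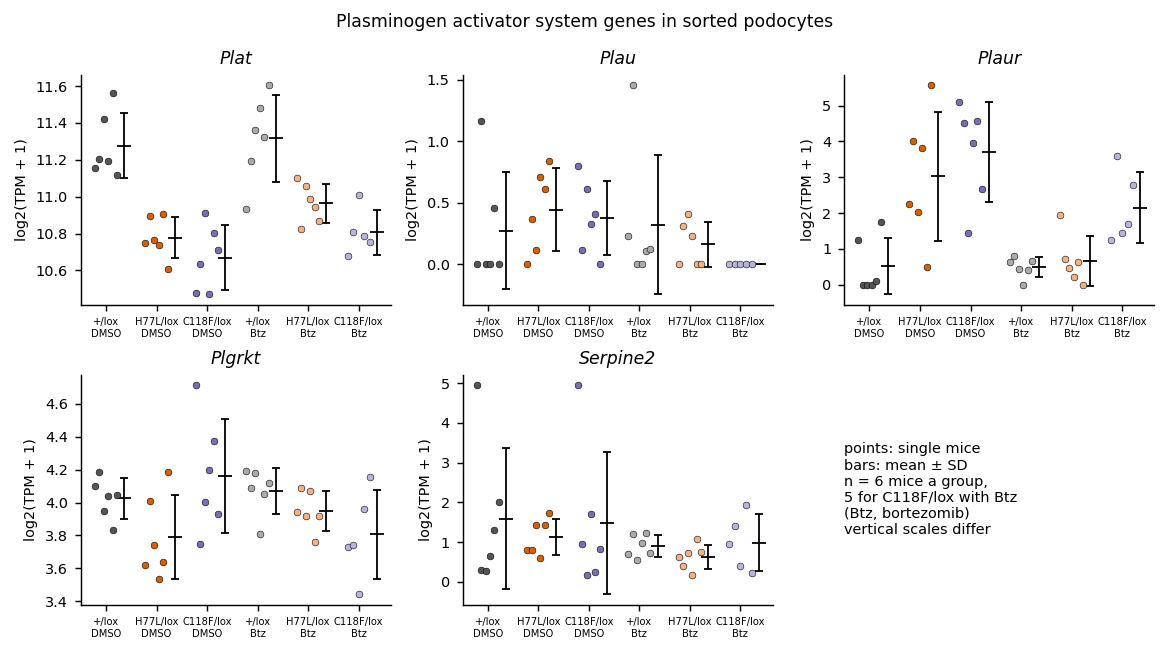
Level of each gene as log2(TPM + 1) (vertical axis, scale differing between panels) in each mouse by genotype and treatment (horizontal axis); points are mice and bars are mean ± SD (n = 6, and 5 for bortezomib-treated C118F/lox mice). Plat lay below every DMSO-treated +/lox mouse in all DMSO-treated knock-in mice, Plaur was highest in DMSO-treated knock-in mice, and single mice stood apart for Serpine2.

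Under bortezomib the genotype difference of Plat was smaller and the groups overlapped. The levels were 1955 to 3117 TPM with a median of 2600 TPM in +/lox mice and 1814 to 2192 TPM with a median of 1998 TPM in H77L/lox mice. The 5 bortezomib-treated C118F/lox mice had 1636, 1727, 1762, 1794 and 2059 TPM. Of the knock-in mice, 2 of 6 H77L/lox and 4 of 5 C118F/lox mice lay below every +/lox mouse. The log2 differences from +/lox mice were -0.35 ± 0.11 for H77L/lox and -0.51 ± 0.13 for C118F/lox.

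Bortezomib itself was accompanied by small differences in Plat. Relative to DMSO, the log2 difference was 0.19 ± 0.08 in H77L/lox mice, 0.14 ± 0.12 in C118F/lox mice and 0.04 ± 0.13 in +/lox mice. The excess of the H77L/lox difference over that of +/lox mice was 0.14 ± 0.15, which is within its own error. In the order of mean levels, both +/lox groups came first and differed by less than their spread. Between DMSO-treated +/lox mice and bortezomib-treated H77L/lox mice, the next in order, the ranges did not overlap. The 4 knock-in groups then followed from bortezomib-treated H77L/lox to DMSO-treated C118F/lox mice, with overlapping ranges between neighbours.

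**Figure D2:**
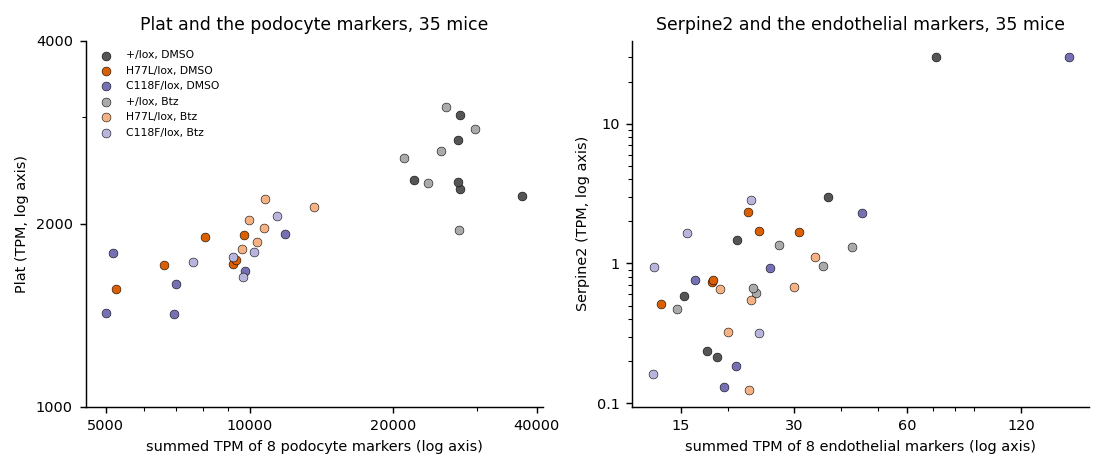
Left, Plat in TPM against the summed TPM of 8 podocyte markers; right, Serpine2 in TPM against the summed TPM of 8 endothelial markers; all axes are logarithmic and each point is 1 of 35 mice, coloured by group. Podocyte marker sums and Plat were both lower in knock-in mice, and the 2 mice with Serpine2 at 29.8 and 29.9 TPM had the 2 highest endothelial sums.

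Plau, the second plasminogen activator, was close to absent. It lies on chromosome 14 at 20886722-20893453 on the plus strand. No read was found in 16 of 35 mice, and 2 mice were above 1 TPM. The highest value, 1.74 TPM or 26 reads, belonged to a bortezomib-treated +/lox mouse. It was at 0 in all 5 bortezomib-treated C118F/lox mice, where a count of 0 allows up to 3 reads or 0.198 to 0.865 TPM per library. DMSO-treated H77L/lox mice ranged from 0 to 0.79 TPM with a median of 0.407 TPM, and DMSO-treated +/lox mice from 0 to 1.24 TPM with a median of 0. All groups overlapped. Plau never passed the filter, so its differences between groups were not tested. Between pairs of groups, the log2 difference farthest from 0 was -0.37 ± 0.13 (bortezomib minus DMSO in C118F/lox mice). With limma voom on recovered reads it was -2.32 ± 0.78. It rested on 0 to 10 reads in the DMSO-treated mice.

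Plaur, the urokinase receptor, was near 0 in +/lox podocytes and present in most DMSO-treated knock-in mice. It lies on chromosome 7 at 24161875-24175394 on the plus strand. DMSO-treated +/lox mice ranged from 0 to 2.35 TPM with a median of 0.0334 TPM, and 3 of the 6 had no read. DMSO-treated H77L/lox mice ranged from 0.408 to 46.6 TPM with a median of 8.41 TPM. DMSO-treated C118F/lox mice ranged from 1.72 to 32.9 TPM with a median of 18.3 TPM. In each knock-in line 5 of 6 mice lay above all +/lox mice, and 1 mouse fell inside their range. The spread within a knock-in group covered more than an order of magnitude.

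The mean Plaur level under DMSO was 0.635 ± 1.00 TPM (SD, n = 6) in +/lox mice, 13.7 ± 17.2 TPM in H77L/lox mice and 16.5 ± 11.7 TPM in C118F/lox mice. As log2(TPM + 1), a scale on which changes of a gene this low appear too small, the difference from +/lox mice was 3.19 ± 0.55 (SE) for C118F/lox. It was 2.51 ± 0.74 for H77L/lox, where Plaur did not pass the filter because 1 mouse of the group, replicate 5, had 0.408 TPM. Without that mouse the H77L/lox difference was 3.02, and without replicate 6, which had the highest level of all mice, it was 2.00. The highest C118F/lox mouse under DMSO, replicate 1, was also the mouse with the highest endothelial marker sum. Without it the C118F/lox difference was 2.91. The summed level of 8 mesangial and smooth muscle markers was higher in the same groups, at 48.8 to 234 TPM in +/lox, 668 to 1039 TPM in H77L/lox and 715 to 1090 TPM in C118F/lox mice under DMSO, and that of 5 parietal epithelial markers was 36.4 to 77.2, 104 to 234 and 72.8 to 165 TPM. Under bortezomib the mesangial sums were 54.7 to 85.3, 448 to 650 and 560 to 935 TPM and the parietal sums 29.4 to 46.6, 85.0 to 111 and 111 to 144 TPM in the same order. The mesangial sums rested on few genes. Under DMSO 4, 5 and 4 of the 8 markers were above 1 TPM in every mouse, in the same order. Replicate 1 of the DMSO-treated +/lox and C118F/lox mice set aside, medians over the other 33 mice were 347 TPM for Des and 124 TPM for Pdgfrb. They were 0.132, 0.0403 and 0.387 TPM for Itga8, Gata3 and Myh11. For the parietal markers these medians were 70.4 TPM for Cldn1, 18.8 TPM for Pax8 and 2.23 TPM for Lbp. Krt18 and Cdh6 had 0.144 and 0.0347 TPM. The part of the mesangial and parietal markers in the Plaur values was not tested.

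The 250 bases before the annotated start of Plaur are shown because Plaur was the member with the largest difference between genotypes. The sequence is from RefSeq (GRCm38.p6, chr7:24462233-24462482, plus strand), a build other than that of the expression table. The motif TGANTCA, the letters bound by AP-1 factors, was searched on both strands. It was found once, 69 to 63 bases before the start, and is in capitals.
Plaur: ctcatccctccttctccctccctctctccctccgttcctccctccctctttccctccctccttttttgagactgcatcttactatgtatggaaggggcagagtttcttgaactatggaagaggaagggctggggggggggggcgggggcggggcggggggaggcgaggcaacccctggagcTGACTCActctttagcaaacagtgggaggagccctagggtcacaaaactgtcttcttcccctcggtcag
The motif occurs in 6.75% of 32851 windows of the same length. The windows of Serpine2 and Plgrkt, the other members matched in that table, did not hold it. A match is a description of letters and not a site at which binding was measured.

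Under bortezomib the Plaur ranges of both knock-in lines overlapped, with 3 of 5 C118F/lox mice inside the range of H77L/lox mice. The overlap rested on 1 mouse, replicate 1 of the H77L/lox mice at 2.86 TPM. The others of that group had 0 to 0.656 TPM, below all C118F/lox mice. In bortezomib-treated H77L/lox mice Plaur ranged from 0 to 2.86 TPM with a median of 0.456 TPM, inside the range of 0 to 0.727 TPM of bortezomib-treated +/lox mice for 5 of 6 mice. The 5 bortezomib-treated C118F/lox mice had 1.39, 1.70, 2.21, 5.86 and 10.95 TPM. All of these lay above all +/lox mice of that treatment. The highest, 10.95 TPM, came from the shallowest library and rested on 42 reads.

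Compared with DMSO, the log2 difference of Plaur under bortezomib was -2.37 ± 0.72 in H77L/lox mice, -1.56 ± 0.62 in C118F/lox mice and -0.03 ± 0.31 in +/lox mice. The +/lox value turned to 0.59 with a pseudocount of 0.1 and to 1.11 with limma voom on recovered reads. The mean was 13.7 TPM under DMSO and 0.763 TPM under bortezomib in the H77L line, and 16.5 and 4.42 TPM in the C118F line, with overlapping groups in both. The difference of the H77L/lox change from that of C118F/lox mice was -0.81 ± 0.98, less than its error. Under bortezomib, C118F/lox mice exceeded H77L/lox mice by 1.49 ± 0.43, and 2 of 5 lay above all H77L/lox mice. With 1 mouse left out, this difference was lowest, at 1.13, without replicate 2 of the C118F/lox mice. It was highest, at 1.74, without replicate 1 of the H77L/lox mice. In the order of mean log2 levels, the only neighbours whose difference exceeded their spread were bortezomib-treated C118F/lox and bortezomib-treated H77L/lox mice.

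**Figure D3:**
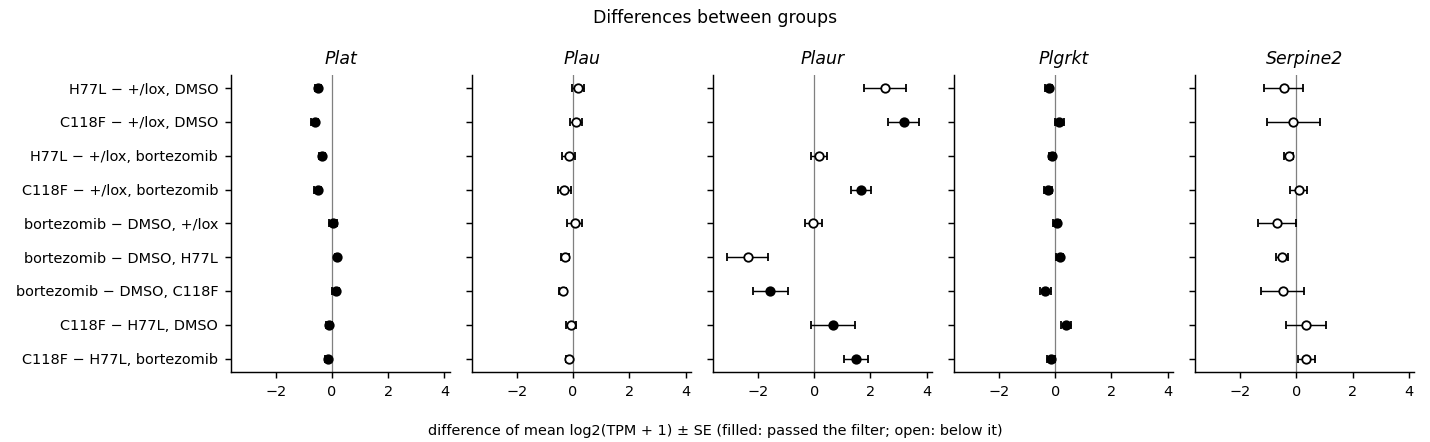
Difference of mean log2(TPM + 1) with its SE (horizontal axis) for each gene (panels) in each comparison (vertical axis, first group minus second); filled points passed the filter on low values and open points did not. Plaur differences reached 3.19 in C118F/lox mice under DMSO, while those of Plat stayed between -0.61 and 0.19.

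The genes whose levels followed Plaur most closely over the 35 mice were Cd44 (Pearson r = 0.93), Tnc (r = 0.92) and Sprr1a (r = 0.91), out of 11306 genes with a whole group above 1 TPM. Cd44 encodes a hyaluronan receptor, Tnc encodes the matrix protein tenascin-C and Sprr1a encodes a small proline-rich protein. With the group means subtracted, r was 0.83, 0.81 and 0.76, so mice of 1 group that were high in Plaur tended to be high in these genes too. The mouse with the highest Plaur, replicate 6 of the DMSO-treated H77L/lox mice, also had the highest Tnc (79.0 TPM) and Sprr1a (75.8 TPM). The points share groups and libraries, so these values are descriptions.

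**Figure D4:**
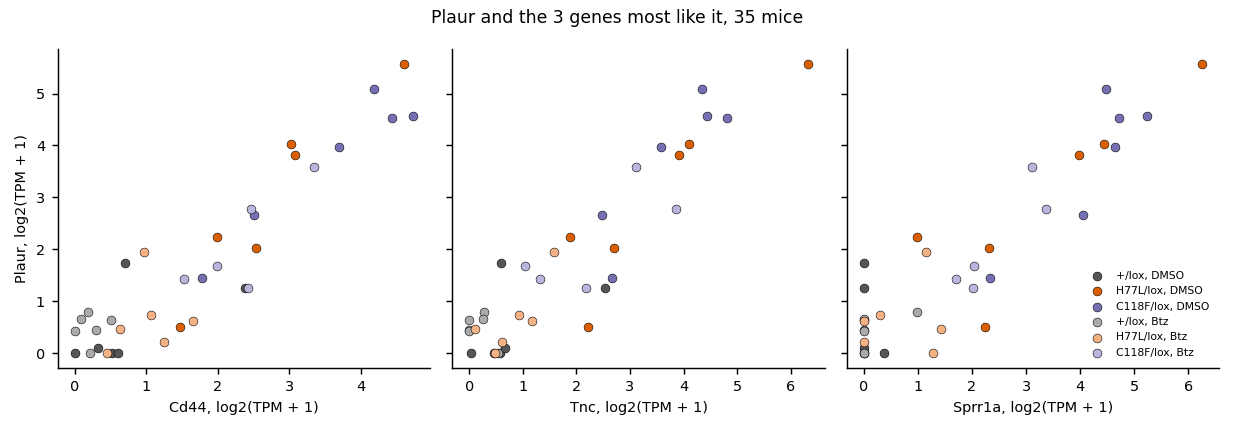
Plaur (vertical axis) against Cd44, Tnc and Sprr1a (horizontal axes), all as log2(TPM + 1); each point is 1 of 35 mice, coloured by group. Most +/lox and bortezomib-treated H77L/lox mice lie near the origin, DMSO-treated knock-in mice extend to the upper right, and bortezomib-treated C118F/lox mice lie between them.

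For Plat the most similar genes were Thsd7a (r = 0.94), Flrt2 (r = 0.92) and Podxl (r = 0.92), with r of 0.77, 0.76 and 0.67 after the group means were subtracted. Podxl encodes podocalyxin, the main sialoprotein of the podocyte surface, and Thsd7a encodes a membrane protein of the podocyte foot process. Thsd7a had means of 210, 72.9 and 59.1 TPM in DMSO-treated +/lox, H77L/lox and C118F/lox mice. Podxl had means of 7321, 3449 and 2535 TPM in the same order.

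Plgrkt, which tethers plasminogen to the cell surface next to its activators, was detected in every mouse, and its groups overlapped. It lies on chromosome 19 at 29325999-29344824 on the minus strand. Its range over the 35 mice was 9.87 to 25.2 TPM with a median of 15.05 TPM. Group means were 15.3 ± 1.38, 13.0 ± 2.59 and 17.3 ± 4.62 TPM (SD, n = 6) in DMSO-treated +/lox, H77L/lox and C118F/lox mice. Under bortezomib they were 15.9 ± 1.55 and 14.5 ± 1.27 TPM (n = 6) and 13.2 ± 2.64 TPM (n = 5). All groups overlapped, and no neighbours in the order of levels differed by more than their spread.

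Between pairs of groups, the log2 differences of Plgrkt farthest from 0 were 0.37 ± 0.18 (C118F/lox minus H77L/lox under DMSO) and -0.35 ± 0.19 (bortezomib minus DMSO in C118F/lox mice). Both involved the DMSO-treated C118F/lox group, whose replicate 1 had 25.2 TPM. The bortezomib change of H77L/lox mice exceeded that of C118F/lox mice by 0.52 ± 0.22. The genes closest to Plgrkt were Psme2 (r = 0.72), Psmb9 (r = 0.71) and Trim12a (r = 0.65), with within-group r of 0.62, 0.66 and 0.55. The mouse with 25.2 TPM of Plgrkt also had the highest Psme2 (718 TPM) and Psmb9 (116 TPM) of all mice. The same mouse had the highest endothelial marker sum (161 TPM) and the lowest podocyte marker sum (5010 TPM) of the 35 mice. Its part in these r values was not tested. Psme2 and Psmb9 encode an activator and a subunit of the immunoproteasome. Psme2 and Trim12a have near-identical copies in the mouse genome, so their values are uncertain.

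Serpine2, the inhibitor among the members, was low in nearly all mice. It lies on chromosome 1 at 79763323-79839144 on the minus strand. Its median over the 35 mice was 0.76 TPM, and 13 mice were above 1 TPM. In DMSO-treated +/lox mice 5 of 6 mice ranged from 0.213 to 3.01 TPM and replicate 1 had 29.8 TPM. In DMSO-treated C118F/lox mice 5 of 6 ranged from 0.131 to 2.30 TPM and replicate 1 had 29.9 TPM. DMSO-treated H77L/lox mice ranged from 0.51 to 2.34 TPM with a median of 1.22 TPM. The bortezomib-treated groups ranged from 0.124 to 2.85 TPM.

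The 2 mice with high Serpine2 also had the 2 highest sums of the endothelial markers and of the leukocyte markers. Plvap, an endothelial marker, was at 60.7 TPM in the C118F/lox mouse and at 25.9 TPM in the +/lox mouse, against a median of 0.863 TPM in the other 33. Acta2, the smooth muscle actin, was at 422 and 80.1 TPM against a median of 6.92 TPM and a highest value of 210 TPM in the others. The other markers of its list did not all follow. Pdgfrb and Des were at 12.7 and 64.1 TPM in the +/lox mouse, against medians of 124 and 347 TPM. The summed mesangial and smooth muscle markers were at 1090 TPM in the C118F/lox mouse and 234 TPM in the +/lox mouse, against a median of 643 TPM. Lyz2, a marker of myeloid cells, was at 285 TPM in the +/lox mouse and 4.24 TPM in the C118F/lox mouse, against a median of 1.19 TPM. The part of these markers in the Serpine2 level was not tested.

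With these mice, the log2 difference of Serpine2 from DMSO-treated +/lox mice was -0.45 ± 0.69 in H77L/lox and -0.11 ± 0.95 in C118F/lox mice. Without them it was 0.22 and -0.13. Under bortezomib, where no mouse stood apart, it was -0.28 ± 0.17 in H77L/lox and 0.08 ± 0.30 in C118F/lox mice. For bortezomib minus DMSO it was -0.51 ± 0.22 in H77L/lox, -0.49 ± 0.78 in C118F/lox and -0.68 ± 0.68 in +/lox mice. Without the 2 mice the last values were 0.20 in C118F/lox and -0.01 in +/lox mice. Serpine2 did not pass the filter, so none of these differences was tested. No neighbours in the order of Serpine2 levels differed by more than their spread.

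The tests rest on genes that passed a filter: a compared group had to have all of its mice above 1 TPM. Few of the members passed it. Plat and Plgrkt passed in every comparison, and Plaur passed where DMSO- or bortezomib-treated C118F/lox mice were included. Serpine2 and Plau never passed. At an adjusted p under 0.05 (limma, Benjamini-Hochberg over all genes tested), 1 of 2 members tested was called in DMSO-treated H77L/lox against +/lox mice, beside 44.8% of all genes, and 2 of 3 in C118F/lox mice, beside 30.4%. Under bortezomib the counts were 1 of 2 beside 23.6% and 2 of 3 beside 27.5%. The gene called in each was Plat, lower, joined by Plaur, higher, in the C118F/lox comparisons. Since these contrasts chose the members, nothing is read from the counts.

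The call of Plat in bortezomib-treated H77L/lox mice was lost when any of replicates 2, 5 and 6 of that group or replicates 3 and 4 of the bortezomib-treated +/lox mice was left out, and the count was then 0. Without replicate 5 of the DMSO-treated H77L/lox mice, Plaur passed the filter there and 2 members were called. Without replicate 6 of that group 2 members, both lower, were called. No member was called between bortezomib and DMSO in a genotype, between the knock-in lines, or for a difference of bortezomib changes, except that 1 member was called lower in H77L/lox mice without replicate 5 of the DMSO group.

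Of 68 related genes of the pathway, in 8 sets by role, 27 were above 1 TPM in every mouse of at least 1 group. Plg (plasminogen itself) and Serpina5 were at 0 in every mouse, 9 genes never exceeded 1 TPM, and 30 exceeded it in some mice of a group but not all. The list was made with earlier results of these data known. Its counts and p-values are therefore descriptions of the listed genes and no test of the pathway. The genes that passed were mainly higher in knock-in podocytes. In DMSO-treated H77L/lox against +/lox mice, 20 of 26 genes tested were higher, beside 22.4% of all genes, and 1 was lower, beside 22.4%. The median log2 difference of the 26 genes was 0.66, against -0.01 over all 10964 genes. Of the 23 genes above 1 TPM in every mouse of both groups, 18 were higher and 1 lower. The mesangial and parietal marker sums given beside Plaur were higher in the same groups, and their part in these differences was not tested.

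In DMSO-treated C118F/lox mice 15 of 25 related genes were higher, beside 13.7% of all genes, and 1 was lower, beside 16.6%. Their median log2 difference was 0.72, against -0.06 over all 10899 genes. Of the 23 that passed in both groups 14 were higher and 1 lower. Under bortezomib 14 of 25 were higher in H77L/lox mice, beside 12.5%, and 2 lower, beside 11%, with a median of 0.39 against -0.01. In bortezomib-treated C118F/lox mice 15 of 26 were higher, beside 15.1%, and 1 lower, beside 12.4%, with a median of 0.56 against 0.00. Among genes that passed in both groups, 13 of 24 were higher and 2 lower in H77L/lox mice, and 14 of 24 higher and 1 lower in C118F/lox mice. The comparisons within a treatment share their +/lox mice.

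**Figure D5:**
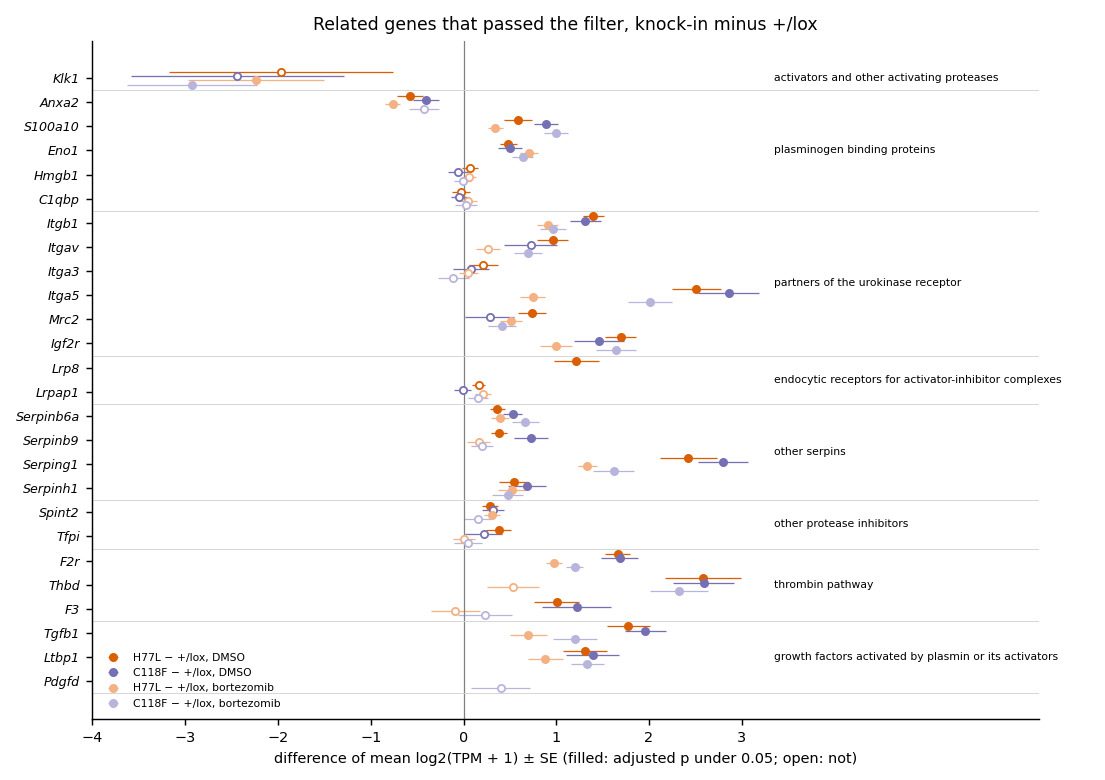
Difference of mean log2(TPM + 1) between knock-in and +/lox mice with its SE (horizontal axis) for related genes that passed the filter, 1 of which is not shown (vertical axis, grouped by role), in 4 comparisons by colour; filled points had an adjusted p under 0.05. Itga5, Serping1 and Thbd lay above 2 in both lines under DMSO, and Anxa2 and Klk1 lay below 0.

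Of 10 listed partners of the urokinase receptor, Itgb3, Vtn (vitronectin), Egfr and Itgam did not pass the filter. Among the partners tested, 5 of 6 genes rose in DMSO-treated H77L/lox mice, beside 22.4% of all genes. In C118F/lox mice 3 of 6 rose, beside 13.7%. Itga5, the alpha subunit of the fibronectin receptor, ranged from 7.92 to 12.4 TPM in +/lox, from 36.7 to 135 TPM in H77L/lox and from 34.3 to 158 TPM in C118F/lox mice under DMSO, with no overlap. Its log2 difference was 2.51 ± 0.26 (adjusted p = 4.26e-06, limma) in H77L/lox and 2.86 ± 0.33 (adjusted p = 1.42e-05, limma) in C118F/lox mice. Its partner subunit Itgb1 was already abundant, at 1610 to 2221 TPM in +/lox mice, and reached 4281 to 5467 TPM in H77L/lox mice. Igf2r, the mannose 6-phosphate receptor that also binds the urokinase receptor, rose by 1.69 ± 0.17 in H77L/lox mice (adjusted p = 2.29e-06, limma).

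Of the endocytic receptors for activator-inhibitor complexes, 2 of 3 tested genes were higher in H77L/lox mice under DMSO, beside 22.4% of all genes. In C118F/lox mice it was 1 of 2, beside 13.7%. The counts differ through Lrp8, a reelin receptor, which passed the filter only through H77L/lox mice, where it was at 1.19 to 3.89 TPM against 0 to 0.788 TPM in +/lox mice. In C118F/lox mice Lrp8 was not tested, at 0.758 to 3.14 TPM, and its log2 difference from +/lox mice was 1.39 against 1.21 in H77L/lox mice. Lrpap1, a chaperone of such receptors, did not pass the test in either line. Lrp1, the main clearance receptor for activator-inhibitor complexes, did not pass the filter and ranged from 0 to 6.99 TPM in DMSO-treated +/lox mice.

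All 4 tested serpins of the list were higher in both lines under DMSO, beside 22.4% of all genes in H77L/lox and 13.7% in C118F/lox mice. Serping1, the C1 inhibitor, had the largest difference of the 4, with 97.1 to 267 TPM in +/lox mice, 418 to 1557 TPM in H77L/lox mice and 515 to 1670 TPM in C118F/lox mice. Its log2 differences were 2.42 ± 0.31 (adjusted p = 2.65e-05, limma) and 2.80 ± 0.27 (adjusted p = 3.16e-06, limma). RT-qPCR in the study found no significant change of Serping1, and the authors could not reproduce their sequencing difference with it. The intracellular serpins had smaller differences, with 0.36 ± 0.08 and 0.53 ± 0.11 for Serpinb6a and 0.39 ± 0.09 and 0.73 ± 0.18 for Serpinb9. Spint2, a Kunitz-type inhibitor, rose by 0.29 ± 0.08 in H77L/lox mice (adjusted p = 0.0114, limma) and had a difference of 0.32 in C118F/lox mice that did not pass (adjusted p = 0.0581, limma).

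In the thrombin pathway all 3 tested genes rose in both lines under DMSO, beside 22.4% of all genes in H77L/lox and 13.7% in C118F/lox mice. Thbd, thrombomodulin, ranged from 3.10 to 9.86 TPM in +/lox, 15.7 to 138 TPM in H77L/lox and 14.3 to 76.1 TPM in C118F/lox mice, with log2 differences of 2.58 ± 0.40 and 2.59 ± 0.33. F2r, the thrombin receptor PAR1, rose by 1.66 ± 0.14 and 1.68 ± 0.20. Both growth factor genes tested, Tgfb1 and Ltbp1, also rose in both lines, beside the same shares of all genes. They encode a latent growth factor and its binding protein, and Ltbp1 passed the filter only through the knock-in groups.

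Plasminogen binding proteins moved in both directions. S100a10, the subunit that carries the plasminogen binding lysine of the annexin A2 complex, rose by 0.59 ± 0.15 in H77L/lox mice (adjusted p = 0.00669, limma) and by 0.89 ± 0.13 in C118F/lox mice (adjusted p = 0.000149, limma). Anxa2, its annexin partner, fell by 0.58 in H77L/lox mice (adjusted p = 0.00453, limma) and by 0.41 in C118F/lox mice (adjusted p = 0.0374, limma). With TPM rescaled between mice the C118F/lox difference of Anxa2 was -0.35 ± 0.14 (adjusted p = 0.077, limma), and without a filter it was -0.41 ± 0.14 (adjusted p = 0.0852, limma), so the call was lost in both. Over all alternatives that kept the 12 mice its adjusted p (limma) lay between 0.0141 and 0.0852. Eno1, a glycolytic enzyme that binds plasminogen at the cell surface, rose by 0.48 ± 0.09 and 0.50 ± 0.13.

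At the cutoffs of the study (adjusted p under 0.001 and an absolute log2 difference above 2), 4 related genes passed in each line under DMSO, Itga5, Serping1 and Thbd among them, beside 2.17% and 2.27% of all genes. Under bortezomib none passed in H77L/lox mice, beside 1.2%, and 3 passed in C118F/lox mice, Itga5 and Thbd among them, beside 1.93%. At the milder threshold Klk1, a kallikrein made by the tubule, fell by 2.23 in H77L/lox and by 2.92 in C118F/lox mice under bortezomib, and tubule markers summed to 20.4 to 768 TPM in bortezomib-treated +/lox mice, 4.14 to 155 TPM in H77L/lox mice and 8.42 to 40.9 TPM in C118F/lox mice, with overlapping ranges. The part of the tubule markers was not tested.

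Within a genotype, related genes were called for bortezomib in H77L/lox mice, where 2 of 26 were lower, beside 0.74% of all genes. In these mice 13 of 26 had an unadjusted p under 0.05 (limma), beside 20% of all genes, and the median log2 difference was -0.29 against 0.00 over all genes. The 2 called genes were Itga5 and F2r. Itga5 had 36.7 to 135 TPM under DMSO and 21.2 to 27.9 TPM under bortezomib (log2 difference -1.41 ± 0.25, adjusted p = 0.0298, limma). F2r had 961 to 1344 TPM and 639 to 889 TPM (-0.57 ± 0.12, adjusted p = 0.0352, limma). The count of called genes was 0 without any of replicates 2, 3, 4 and 6 of the bortezomib-treated or replicates 2 and 4 of the DMSO-treated mice. It was 5 without replicate 1 of the bortezomib-treated mice. None was called in +/lox mice, beside 0% of all genes, or in C118F/lox mice, beside 0%. There, 2 of 24 and 2 of 26 had an unadjusted p under 0.05, beside 8.66% and 5.86% of all genes, and limma on recovered reads called none.

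Between the knock-in lines, no related gene differed under DMSO, beside 0% of all genes, with 0 of 25 at an unadjusted p under 0.05, beside 3.85% of all genes, and none by limma on recovered reads. Under bortezomib 3 of 26 were higher in C118F/lox than in H77L/lox mice, beside 0.713% of all genes. They were Thbd (1.79 ± 0.32, adjusted p = 0.018, limma), Itga5 (1.27 ± 0.21, adjusted p = 0.0145, limma) and S100a10 (0.65 ± 0.12, adjusted p = 0.0213, limma), and their groups did not overlap. With the mouse number of the labels as a covariate none was called, and without replicate 1 of the bortezomib-treated C118F/lox mice 5 were.

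No related gene passed for a difference of bortezomib changes between genotypes, beside 0% of all genes in H77L/lox against C118F/lox, 0% in H77L/lox against +/lox and 0% in C118F/lox against +/lox mice. Unadjusted p-values under 0.05 (limma) were found for 4 of 27, 10 of 26 and 4 of 26 related genes, beside 7.6%, 18.2% and 5% of all genes, and limma on recovered reads called none. In the H77L/lox against +/lox test, up to 3 genes, all with a lower value in H77L/lox mice, were called when 1 mouse was left out, 3 of them without replicate 5 of the DMSO-treated +/lox mice. The members gave -2.34 ± 0.82 for Plaur and 0.14 ± 0.15 for Plat in that test and -1.53 ± 0.72 and 0.10 ± 0.17 in the test of C118F/lox mice.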

How the data were processed

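Podocyte RNA of 35 mice was sequenced from 1 end after poly(A)-based library preparation. Per the labels and the study's methods, the authors trimmed reads with Trim Galore 0.6.7, aligned them with STAR to GRCm39, placing multimapping reads once at random, and counted them with featureCounts 1.6.3. The authors deposited TPM values, and the step from counts to TPM is not given in the sources used here. Gene names and positions came from GENCODE vM39 (32776 of 33292 identifiers matched).

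TPM values were transformed to log2(TPM + 1). Genes above 1 TPM in every mouse of at least 1 group compared were fitted with limma 3.58.1 (R 4.3.3, lmFit and eBayes with a trend, two-sided) on the groups compared only, and p-values were adjusted by Benjamini-Hochberg. Members below the filter have the difference from an unfiltered fit. The study used DESeq2 on counts, which were not used here. A called gene has an adjusted p under 0.05. Within a mouse, TPM rose in equal steps for each gene. Whole reads were recovered for all 23943 genes above 0 (100% within a tolerance of 1e-05), as the largest common step, so reads of rarely detected genes may be underestimates. The floor given for a count of 0 covers counting error only. SDs describe the spread between mice, and SEs come from the limma fits to that spread. Alternatives are a pseudocount of 0.1, no filter, rescaling by median-of-ratios factors, a fit of all 35 mice, the mouse number as a covariate, each mouse left out in turn, and, added after the data were seen, limma voom on recovered reads and the omission of 2 mice. The fits were tested on simulated data. The members, the related genes and the markers were chosen with earlier results of these data known. Named were the members, related genes past the study's cutoffs or with the 3 highest or 3 lowest called differences without overlap, and the 3 genes with the highest r for each member above the filter. Tgfb1, Ltbp1, Spint2 in C118F/lox mice, Lrp1, Lrpap1, Klk1, Itgb3, Vtn, Egfr and Itgam were named after their values were seen. Some named items, 1 related gene that met this rule among them, are not reported here. Figures were drawn in Python 3.11.15 with matplotlib 3.10.9, numpy 2.4.6 and pandas 2.3.3. Labels do not name litters or sorting days, so each mouse was taken as 1 replicate.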

Additional observations from a re-analysis of the deposited data

Results flagged for a closer look

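For 18 genes, the 5 members and 13 named related genes, each of the 6 groups was examined for a mouse far from the others (108 groups of values on the log2(TPM + 1) scale). Such a mouse was found in 10 groups, 9.26%, where chance gives about 1 in 20, and 5 of them were groups of members.

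Serpine2 stood apart in replicate 1 of the DMSO-treated +/lox mice (29.8 TPM against 0.213 to 3.01 TPM in the others) and in replicate 1 of the DMSO-treated C118F/lox mice (29.9 TPM against 0.131 to 2.30 TPM). These mice carry the numbers 47155 and 47151 in the labels and had the highest endothelial and leukocyte marker sums. The +/lox mouse also stood apart for Serping1, with 267 TPM against 97.1 to 136 TPM.

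Plau was at 1.74 TPM in replicate 2 of the bortezomib-treated +/lox mice against 0 to 0.173 TPM. Plaur was at 2.86 TPM in replicate 1 of the bortezomib-treated H77L/lox mice against 0 to 0.656 TPM. Plgrkt was lowest, at 13.0 TPM, in replicate 4 of the bortezomib-treated +/lox mice, where the others had 15.6 to 17.3 TPM.

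F2r was at 507 TPM in replicate 5 of the DMSO-treated +/lox mice against 319 to 369 TPM. Itgb1 was at 4281 TPM in replicate 5 of the DMSO-treated H77L/lox mice against 5063 to 5467 TPM, and at 2854 TPM in replicate 6 of the bortezomib-treated +/lox mice against 2029 to 2294 TPM. Spint2 was at 211 TPM in replicate 3 of the bortezomib-treated H77L/lox mice against 241 to 258 TPM.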

How the results depend on the processing

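No difference of a called member changed its direction. For related genes the counts of called genes were compared across settings, and not the direction of each gene. Plaur, a gene with many values near 0, depended most on the scale. With a pseudocount of 0.1 its log2 differences were 5.31 (C118F/lox minus +/lox, DMSO), 2.92 (C118F/lox minus +/lox, bortezomib) and 2.71 (C118F/lox minus H77L/lox, bortezomib), and with limma voom on recovered reads 6.09, 2.997 and 2.83, with -3.07 for the bortezomib change of C118F/lox minus that of +/lox mice. Without a filter, 2 members were called in H77L/lox mice under DMSO and 0 under bortezomib, and 0 related genes were called both for bortezomib in H77L/lox mice and between the lines under bortezomib. The mouse number as a covariate also gave 0 in the last comparison. With 1 mouse left out, members called ranged from 1 to 2 (H77L/lox, DMSO), from 0 to 1 (H77L/lox, bortezomib) and from 0 to 1 (bortezomib in H77L/lox). Related genes called ranged from 0 to 5 for bortezomib in H77L/lox mice, from 2 to 5 between the lines under bortezomib and from 0 to 3 for the bortezomib change of H77L/lox minus that of +/lox mice. Without the 2 mice high in Serpine2, its difference changed sign for H77L/lox under DMSO (0.22) and for bortezomib in C118F/lox mice (0.20), among others. No paired analysis was possible because the replicate numbers follow sample order. Few reads of Plau, Plaur and Serpine2 were found in most mice, which limits the precision of their values.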
